A study of Mus musculus with 7 samples.

Results

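The 10 genes described here encode the enzymes that make, control and break down the polyamines putrescine, spermidine and spermine. They were chosen by name as members of that pathway: Odc1, Amd1, Srm, Sms, Oaz1, Oaz2, Azin1, Sat1, Smox and Paox. All 10 were found among the 55367 gene symbols of the data. They were measured by messenger RNA sequencing of G1E-ER4, a single mouse erythroid progenitor line that lacks GATA1 and carries a GATA1-estrogen receptor fusion, so that estradiol starts erythroid maturation. Polyamine gene levels were compared across 7 libraries in 3 groups. All cells grew with erythropoietin and medium conditioned by Kit ligand-producing cells. The undifferentiated group, called 0 h, received no estradiol or chelator and is 1 library without a replicate. The control group is 3 libraries taken 24 h after 100 nM β-estradiol. The DTPA group is 3 libraries taken 24 h after the same estradiol together with 50 µM DTPA, a metal chelator used to restrict zinc, which was added as differentiation began. The labels call the replicates biological and do not say whether they came from separate cultures, so p-values measure only the spread between these samples. In RNA from whole cultures, fewer cells of a type and less RNA per cell cannot be told apart. No library was taken at 24 h without estradiol. In comparisons with 0 h, estradiol and 24 h in culture therefore cannot be told apart.

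Polyamines are small positively charged molecules that bind nucleic acids and ribosomes, and growing cells make them in quantity. Ornithine decarboxylase makes putrescine from ornithine, and the aminopropyl transferases extend it to spermidine and then spermine with groups supplied by S-adenosylmethionine decarboxylase. Antizymes bind ornithine decarboxylase and send it to the proteasome, the antizyme inhibitor captures antizymes, and acetylation by the Sat1 product marks spermidine and spermine for oxidation or export. Much of this control acts on protein, including a ribosomal frameshift that antizyme translation needs, so the RNA levels below are not enzyme activities.

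The values are TPM, a relative abundance of transcripts. TPM values are scaled for gene length, so levels set side by side between genes within a library depend on the length used for each. The merged GENCODE exons of Oaz1 cover 2558 bases in 2 blocks, nearly its whole gene. With merged exon lengths, 99.1% to 99.3% of low TPM values lay within 0.1 of a whole read, so such lengths appear to have been used. A gene whose main transcript is shorter is then listed too low. Sums, ratios and orders across genes below carry this limit. Estimated depths were 17.59 M reads for the 0 h library, 17.68 to 18.60 M for control libraries and 19.79 to 21.20 M for DTPA libraries, and 1 read in a gene of 2 kb was worth 0.0696 to 0.0857 TPM. Of the 9 erythroid marker genes examined, 9 reached 1 TPM, with summed levels of 12379.1 TPM at 0 h, 49083.9 to 53876.8 in the controls and 52990.1 to 64840.2 with DTPA. The 5 early progenitor markers (Kit, Gata2, Spi1, Myb and Cd34, the last listed at 0) summed to 610.4 TPM at 0 h, 51.2 to 56.3 in the controls and 116.1 to 123.8 with DTPA. The megakaryocyte markers summed to 39.5 TPM at 0 h, 9.08 to 12.7 in the controls and 42.4 to 51.5 with DTPA, with Ppbp and Vwf at 0 throughout. The 8 myeloid and mast cell markers summed to 14.9 TPM or less, with Mpo, Lyz2 and Itgam at 0. Lymphoid markers summed to 2.82 TPM or less and fibroblast and epithelial markers to 0.23 TPM or less. The metallothionein genes Mt1 and Mt2, whose transcription follows available zinc, checked the chelation: Mt2 was 2752.4 ± 153.3 TPM (SD, n = 3) in the controls and 12.6 ± 0.992 TPM (SD, n = 3) with DTPA. Mt1 differed less, at 2464.9 ± 272.9 TPM (SD, n = 3) in the controls and 195.0 ± 10.2 TPM (SD, n = 3) with DTPA.

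Before the values, promoter sequences are shown for 4 of the genes whose transcripts differed between DTPA and control. The treatment removes a metal, and metal-responsive promoters carry a short known motif, the metal response element. Oaz1, also called lower with DTPA, is not shown. Its promoter had no match to this motif, and neither had that of Sat1, which is shown. Promoters of 8 of the 10 genes were in the RefSeq table (GRCm38.p6), without Srm and Azin1, in 10 windows, since Sms and Paox have more than 1 start. The 250 bases before the start were searched on both strands for TGCACNC and TGCGCNC, and matches are in capitals. The stretch of Odc1 lies at chr12:17544623-17544793 on the plus strand and is cut short at the first exon of the GENCODE model. That of Amd1 lies at chr10:40302189-40302438 on the minus strand. That of Oaz2 lies at chr9:65676298-65676547 on the plus strand, inside the GENCODE gene but in none of its exons. That of Sat1 lies at chrX:155216450-155216699 on the minus strand. All are written 5′ to 3′.
Odc1: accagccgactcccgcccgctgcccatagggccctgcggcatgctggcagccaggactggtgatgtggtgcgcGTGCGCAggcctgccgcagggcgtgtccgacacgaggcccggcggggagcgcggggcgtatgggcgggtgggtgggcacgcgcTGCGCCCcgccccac
Amd1: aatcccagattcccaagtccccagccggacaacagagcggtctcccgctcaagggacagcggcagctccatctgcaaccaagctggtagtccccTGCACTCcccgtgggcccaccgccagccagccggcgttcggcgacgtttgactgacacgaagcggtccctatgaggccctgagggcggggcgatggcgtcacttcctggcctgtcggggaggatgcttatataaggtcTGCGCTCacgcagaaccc
Oaz2: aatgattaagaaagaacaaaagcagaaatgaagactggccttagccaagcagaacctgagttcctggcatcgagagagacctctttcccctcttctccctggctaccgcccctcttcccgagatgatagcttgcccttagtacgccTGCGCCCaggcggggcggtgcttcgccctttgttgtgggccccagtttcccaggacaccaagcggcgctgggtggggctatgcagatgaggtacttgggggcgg
Sat1: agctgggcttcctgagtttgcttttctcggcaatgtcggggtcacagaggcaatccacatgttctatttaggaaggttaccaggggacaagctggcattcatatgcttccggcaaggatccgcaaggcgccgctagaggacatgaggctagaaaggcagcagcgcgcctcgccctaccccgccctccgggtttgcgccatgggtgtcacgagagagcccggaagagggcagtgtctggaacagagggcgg
The metal response element was matched in at least 1 window of 4 of the 8 genes, Odc1, Amd1, Oaz2 and Smox, and of 23.8% of the 27025 genes in the table. Counted by window, it was in 4 of 10 and in 21.4% of all 32851. The Odc1 matches start 177 and 94 bases before the RefSeq start, and the nearer one overlaps a GC box. The Amd1 matches start 156 and 18 bases before the start, and the Oaz2 match 104 bases before it. By gene, the GC box GGGCGG was in 7 of 8 against 35.4% of all genes, and the E-box CACGTG that MYC binds in 1 of 8 (Sms) against 6.86%. The GATA core GATAA was in 0 of 8 against 25.5%, and the cAMP response element TGACGTCA in 0 of 8 against 1.77%. A match is a description of letters and not of a bound site. Genes with the motif were both lower with DTPA (Odc1, Amd1) and higher (Oaz2), as the values below show.

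The first question is how the pathway differed between undifferentiated cells and cells 24 h after estradiol. Transcripts of all 4 synthesis enzymes were lower after 24 h, most of all Srm, and those of Sat1, the first enzyme of breakdown, were higher. In the control comparison 1 member was called higher (Sat1) and 5 lower (Srm, Sms, Amd1, Paox and Odc1) of 9 tested. A call needed an adjusted p under 0.05 by limma and a log2 fold change of at least 1 in size. Of all 11906 genes tested, 39.4% were called, 15.1% higher and 24.3% lower. Of the members tested, 11.1% were called higher and 55.6% lower, and with 9 genes these shares are not read as different. The member counts were 3 higher and 4 lower with median-of-ratios factors, and 2 and 4 after quantile normalization. The median log2 fold change was -1.08 over the 9 members and -0.22 over all genes. The 0 h library lay outside the range of the controls for all 9 members tested, and for 90.7% of all genes, so that count says little. Without the minimum fold all 9 members and 74.4% of all genes passed the p threshold. The spread of the single 0 h library was taken from the 24 h groups. Smox, spermine oxidase, which acts directly on spermine, did not reach 1 TPM anywhere: it was listed at 0 at 0 h and at 0, 0.09 and 0.18 TPM in controls 1, 2 and 3, and had 0.04 to 0.07 TPM with DTPA, an estimated 4 reads at most in any library.

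Srm encodes spermidine synthase, the enzyme that turns putrescine into spermidine (chr4:148591503-148594993, plus strand, GRCm38). It stood at 578.21 TPM at 0 h, the highest of the 10 genes there, and at 14.71, 12.87 and 13.37 TPM in controls 1, 2 and 3. The 0 h value was 42.4 times the control mean of 13.6 ± 0.951 TPM (SD, n = 3), a log2 change of -5.31 ± 0.0771 (SE, limma adjusted p = 2.53e-07). Of the 11906 genes tested, 9 (0.0756%) lay at least that far below their 0 h value, Srm included. Sms, which encodes spermine synthase and makes spermine from spermidine (chrX:157443855-157492287, minus strand), was at 43.08 TPM at 0 h and at 4.95, 4.36 and 4.90 TPM in the controls. It fell by 2.94 on the log2 scale (SE 0.101, adjusted p = 3.07e-06), less far than Srm. Srm was thus 13.4 times Sms at 0 h, and 2.97, 2.95 and 2.73 times Sms in controls 1, 2 and 3.

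Amd1 encodes S-adenosylmethionine decarboxylase, which supplies both transferases (chr10:40287458-40302186, minus strand). Its level was 218.82 TPM at 0 h and 48.32, 51.09 and 52.03 TPM in the controls, a log2 change of -2.09 ± 0.0721 (adjusted p = 3.10e-06). Odc1 encodes ornithine decarboxylase (chr12:17544794-17551505, plus strand). It had 375.84 TPM at 0 h and 173.60, 166.92 and 193.57 TPM in the controls, the smallest fall of the 4 synthesis enzymes at -1.08 ± 0.0814 (adjusted p = 6.35e-05). The fall of Odc1 sits close to the minimum fold: with TPM divided by median-of-ratios size factors it was -0.93, under that minimum. Because the other synthesis enzymes fell further, Odc1 made up 30.9% of the summed synthesis TPM at 0 h and 71.9%, 71% and 73.4% in controls 1, 2 and 3.

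The regulators of ornithine decarboxylase moved less in the control comparison. Oaz1, the main antizyme (chr10:80826656-80829290, plus strand), was at 355.35 TPM at 0 h and 695.17, 706.52 and 643.25 TPM in the controls, 1.92 times the 0 h value. Oaz2, the second antizyme (chr9:65668001-65690300, plus strand), was at 21.11 TPM and then 39.89, 43.81 and 39.70 TPM, 1.95 times. Their log2 changes of 0.94 ± 0.0863 (adjusted p = 1.52e-04) and 0.93 ± 0.0741 (adjusted p = 8.03e-05) passed the p threshold and missed the minimum fold. With median-of-ratios factors they were 1.08 and 1.07 and both were called. Azin1, the antizyme inhibitor, a relative of ornithine decarboxylase without enzyme activity (chr15:38487427-38519266, minus strand), was at 47.28 TPM and then 59.12, 57.31 and 61.14 TPM, a log2 change of 0.32 ± 0.0847 (adjusted p = 0.0155) that was not called.

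On the breakdown side, Sat1, the spermidine and spermine acetyltransferase (chrX:155213132-155216449, minus strand), went from 16.47 TPM at 0 h to 69.27, 68.98 and 76.34 TPM in the controls. The control mean was 4.34 times the 0 h value, a log2 change of 2.05 ± 0.0711 (adjusted p = 3.16e-06). Paox, the oxidase that acts on acetylated polyamines (chr7:140115799-140137224, plus strand), went the other way, from 8.03 TPM to 2.75, 3.14 and 2.93 TPM, -1.20 ± 0.15 (adjusted p = 5.99e-04). The Paox call depends on the scale at this low level: its log2 fold change was -0.71 with a pseudocount of 5 and -0.82 after quantile normalization.

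**Figure D1:**
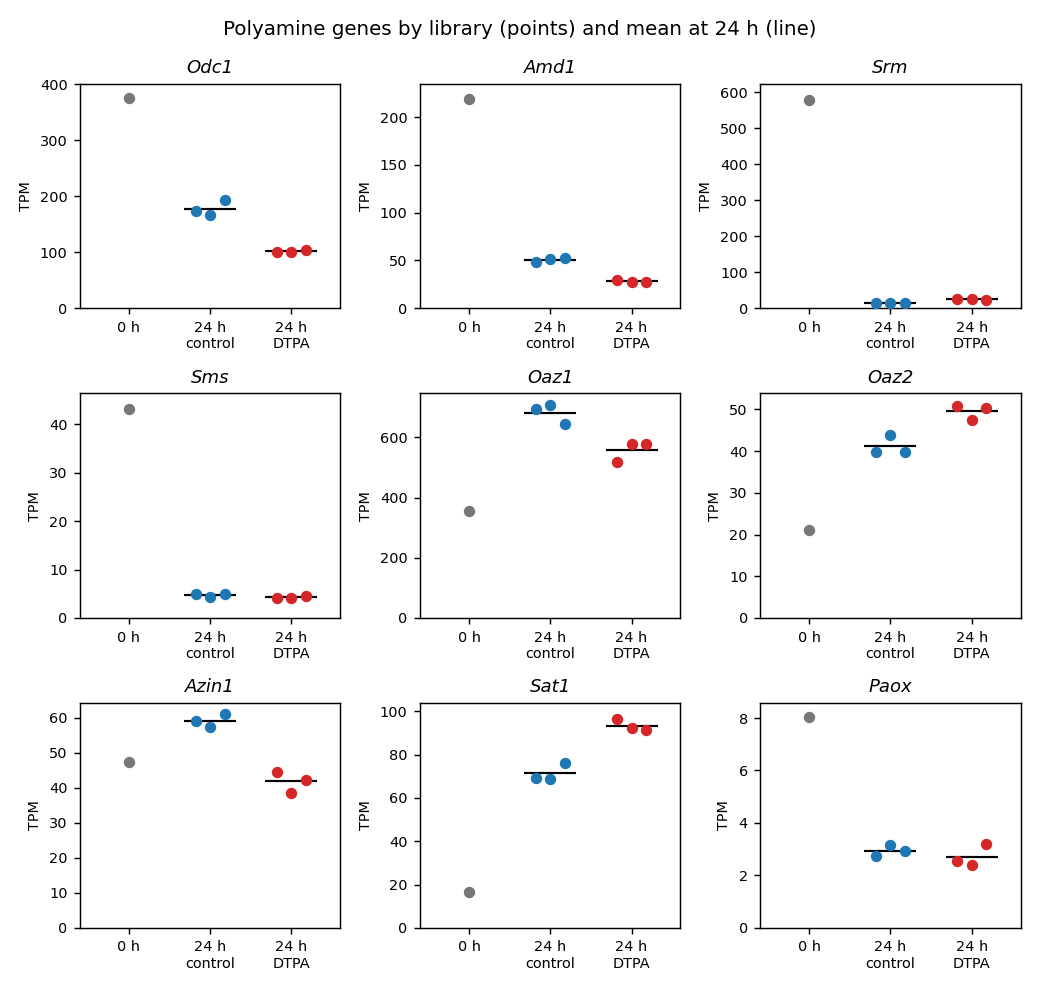
Level of 9 polyamine genes in TPM (vertical axis, from 0, its own range for each gene) in the 0 h library, the 3 controls and the 3 DTPA libraries; points are libraries and lines are group means at 24 h. Srm, Sms and Amd1 stand far above their 24 h levels at 0 h, and Sat1 stands below them; Smox, under 1 TPM throughout, is not drawn.

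The second question is what chelation changed during the same 24 h. With DTPA, Odc1, Amd1, Azin1 and Oaz1 transcripts were lower than in the controls, and Srm, Sat1 and Oaz2 transcripts were higher. That makes 3 members higher and 4 lower of 9 tested, at an adjusted p under 0.05 by limma. The response to DTPA was broad: of 11147 genes tested 58.1% were called, 21.7% higher and 36.4% lower. With median-of-ratios factors 3246 genes were called higher and 3127 lower, and after quantile normalization 3201 and 3106. Of the members tested, 33.3% were called higher and 44.4% lower, and with 9 genes these shares are not read as different from those of all genes. The groups did not overlap for 7 of the 9 members and for 65% of all genes. The median log2 fold change was -0.12 over the members and -0.09 over all genes.

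Odc1 was at 101.12, 100.56 and 103.14 TPM in DTPA libraries 1, 2 and 3, all below the lowest control at 166.92 TPM. The DTPA mean was 101.6 ± 1.36 TPM and the control mean 178.0 ± 13.9 TPM (SD, n = 3 each), 1.75 times higher. The log2 change was -0.80 ± 0.0577 (SE, limma adjusted p = 1.79e-05). An exact two-sided permutation test of the 6 libraries gave p = 0.1, the smallest that 3 against 3 allows. Amd1 was at 29.84, 27.22 and 27.22 TPM with DTPA, again below every control, with a control mean 1.8 times the DTPA mean. Its log2 change of -0.82 ± 0.0561 (adjusted p = 1.35e-05) was close in size to that of Odc1.

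Srm was higher with DTPA, unlike Odc1 and Amd1. It was at 24.58, 24.33 and 23.94 TPM with DTPA, above the highest control at 14.71 TPM, and the DTPA mean of 24.3 ± 0.323 TPM was 1.78 times the control mean. The log2 fold change was 0.79 ± 0.0631 (adjusted p = 3.09e-05), higher in 3 of 3 DTPA libraries. Sms had 4.20, 4.15 and 4.45 TPM with DTPA, and its lowest control, at 4.36 TPM, lay inside that range, with a log2 change of -0.12 ± 0.0931 (adjusted p = 0.296). The ratio of Srm to Sms was accordingly 5.85, 5.86 and 5.38 with DTPA against 2.73 to 2.97 in the controls. The summed early progenitor markers were also higher with DTPA (116.1 to 123.8 TPM against 51.2 to 56.3), as were the summed megakaryocyte markers, and their part in the Srm difference was not tested.

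Among the regulators, Azin1 was at 44.58, 38.59 and 42.34 TPM with DTPA, below every control. The change was -0.49 ± 0.0611 on the log2 scale (adjusted p = 3.08e-04). Oaz1 was at 517.12, 579.19 and 578.91 TPM, below the lowest control at 643.25 TPM, with a change of -0.29 ± 0.0592 (adjusted p = 0.00413). This Oaz1 call was lost with median-of-ratios factors, at -0.17 and an adjusted p of 0.0571. Oaz2 was at 50.77, 47.54 and 50.37 TPM, above the highest control at 43.81 TPM, with a change of 0.26 ± 0.0554 (adjusted p = 0.0046). The antizymes therefore differed in sign, and Oaz1 held most of their sum in every library.

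Sat1 was at 96.71, 92.47 and 91.27 TPM with DTPA, above the highest control at 76.34 TPM. The DTPA mean of 93.5 ± 2.86 TPM was 1.31 times the control mean of 71.5 ± 4.17 TPM (SD, n = 3 each), a log2 change of 0.38 ± 0.0525 (limma adjusted p = 5.29e-04). The exact two-sided permutation p was 0.1. Paox was at 2.54, 2.39 and 3.21 TPM, overlapping the controls, with a change of -0.09 ± 0.128 (adjusted p = 0.575).

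**Figure D2:**
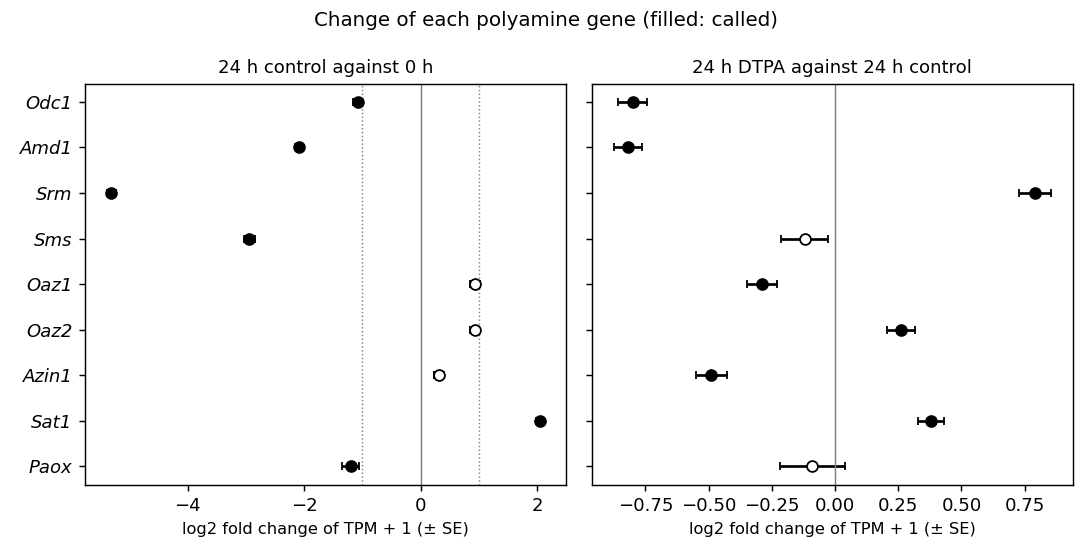
Log2 fold change of TPM + 1 (horizontal axis, with its SE) for 9 polyamine genes, 24 h control against 0 h on the left and 24 h DTPA against control on the right; filled points were called and the dotted lines mark the minimum fold of 1. Odc1 and Amd1 are below 0 in both panels, Sat1 is above 0 in both, and Srm is at -5.31 on the left and 0.79 on the right.

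Set side by side with the 0 h library, some members lay further from it with DTPA than in the controls, and others lay nearer. The comparisons share libraries, and the gap between each pair of values repeats the DTPA against control difference, so only the values are given. With DTPA the log2 fold change against 0 h was -1.88 for Odc1 and -2.92 for Amd1, where the controls had -1.08 and -2.09, so both lay further below 0 h. Sat1 and Oaz2 lay further above 0 h, at 2.43 against 2.05 and at 1.19 against 0.93. Srm lay nearer to 0 h, at -4.52 against -5.31, and so did Oaz1, at 0.65 against 0.94. Azin1 was at -0.18 (adjusted p = 0.106) against 0.32, Sms at -3.07 against -2.94 and Paox at -1.29 against -1.20. Of 9 members 2 were called higher with DTPA than at 0 h (Sat1, Oaz2) and 5 lower (Srm, Sms, Amd1, Odc1, Paox), where 43.3% of 12016 genes were called, 15.7% higher and 27.6% lower. For these 9 members the 0 h library lay outside the range of the DTPA libraries, as it did for 92.3% of all genes, and without the minimum fold 8 of 9 members and 76.5% of all genes passed the p threshold.

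Summed by role, the 4 synthesis transcripts came to 1215.9 TPM at 0 h, 241.6, 235.2 and 263.9 TPM in the controls and 159.7, 156.3 and 158.8 TPM with DTPA. The 3 breakdown transcripts, nearly all Sat1, came to 24.5 TPM at 0 h, 72, 72.2 and 79.5 TPM in the controls and 99.3, 94.9 and 94.5 TPM with DTPA. Neither sum overlapped between the 24 h groups. The ratio of Sat1 to Odc1 within a library was 0.0438 at 0 h, 0.394 to 0.413 in the controls and 0.885 to 0.956 with DTPA. As listed, both transcripts were thus at nearly equal levels with DTPA. With the reads of its near-identical copies, described below, Odc1 would be at 133.34 to 141.10 TPM with DTPA, above Sat1 at 91.27 to 96.71 TPM. The ratio of Oaz1 to Odc1 was 0.945 at 0 h, 3.32 to 4.23 in the controls and 5.11 to 5.76 with DTPA. Oaz1 was lower with DTPA than in the controls, and Odc1 was lower still. The ratio of Azin1 to Odc1 was 0.126 at 0 h, 0.316 to 0.343 in the controls and 0.384 to 0.441 with DTPA. Azin1 too was lower with DTPA than in the controls, by less than Odc1, the shared divisor of these ratios. These sums and ratios are descriptions without a test.

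**Figure D3:**
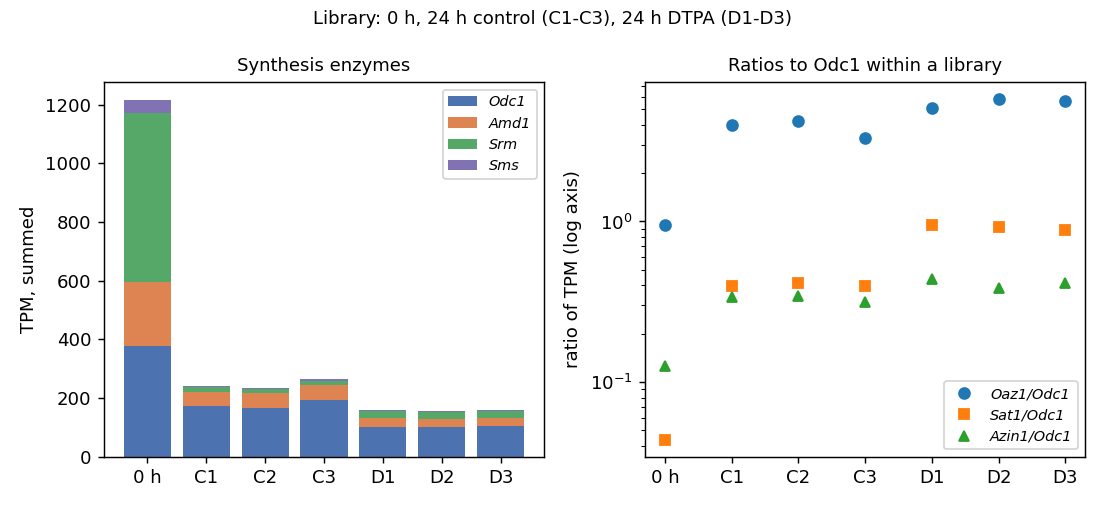
Left, stacked TPM of the 4 synthesis enzymes in each library (bars from 0); right, TPM of Oaz1, Sat1 and Azin1 divided by that of Odc1 in the same library, on a log axis; C1 to C3 are controls and D1 to D3 DTPA libraries. The synthesis stack falls from 1215.9 TPM at 0 h to 156.3 to 159.7 TPM with DTPA, and all 3 ratios are lowest at 0 h and highest in the DTPA libraries.

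The order of the genes by level differed between the 0 h library and the 24 h groups. At 0 h it ran Srm, Odc1, Oaz1, Amd1, Azin1, Sms, Oaz2, Sat1, Paox and Smox. In the controls it ran Oaz1, Odc1, Sat1, Azin1, Amd1, Oaz2, Srm, Sms, Paox and Smox. With DTPA it was the same except that Oaz2 stood above both Azin1 and Amd1. No neighbours in either 24 h order overlapped between libraries, while the single 0 h library gives no spread, so Odc1 and Oaz1 at 375.84 and 355.35 TPM cannot be ordered there with an error.

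Several members have near-identical copies in the genome, and reads that fit both could have been assigned either way; the sources used here do not say how such reads were counted. The largest case is Gm7993, a processed pseudogene of Odc1 at chr5:95974240-95975623 (plus strand), which matched the Odc1 coding sequence at 97.7% over 1366 aligned bases. It was listed at 294.90 TPM at 0 h, 132.18, 142.22 and 136.08 TPM in the controls and 92.67, 76.60 and 83.37 TPM with DTPA, in the same order of groups as Odc1. It held 22.2% to 27.1% of the estimated reads of Odc1 and Gm7993 together in each library. The window of 60 coding bases (positions 877 to 936) where the sequences differ most, read from GENCODE M21 transcripts, shows how a read can be told apart there, with the 7 differing bases in capitals.
Odc1: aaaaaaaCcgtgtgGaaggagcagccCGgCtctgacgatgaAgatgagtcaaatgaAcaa
Gm7993: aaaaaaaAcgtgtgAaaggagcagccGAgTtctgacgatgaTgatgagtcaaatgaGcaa
Counting the reads of Odc1 and its 3 closest copies together, a setting chosen after seeing the data, gave 503.81 TPM at 0 h, 227.90 to 252.40 TPM in the controls and 133.34 to 141.10 TPM with DTPA. The log2 fold changes of Odc1 were then -1.09 for control against 0 h and -0.78 for DTPA against control (adjusted p = 1.02e-05). For Sms the pseudogene Sms-ps matched the whole coding sequence without a difference and held 16% to 26.4% of the reads of both. For Paox, Gm19680 held 10.3% to 26.3%. Amd2, an intronless gene that differs from the Amd1 coding sequence at 1 of 1002 bases, held 2.41% to 5.03%. Adding the copies changed no call of Odc1, Amd1, Oaz1, Sms or Paox. The sums, ratios, shares and order of genes given above were taken without the copies. Azin1 shares 358 exon bases with Gm49077 and Paox shares 142 with Echs1, both on the opposite strand, and whether the counting used strand is not given in the sources used here.

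By the root mean square difference of centred log2(TPM + 1) over the 7 libraries, among the 8871 genes whose mean reached 5 TPM, the genes most like Odc1 were Brip1os (0.053), Prpf3 (0.060), Smc6 (0.061) and Srsf1 (0.068). Srsf1, a splicing factor, was at 345.6 TPM at 0 h and at means of 182.9 TPM in the controls and 104.3 TPM with DTPA. The genes most like Sat1 were 1300002E11Rik (0.048), Gabarapl2 (0.049), Rras (0.055) and Zfp874a (0.055). Gabarapl2, an autophagy protein of the ATG8 family, was at 25.8 TPM at 0 h and at means of 111.6 TPM in the controls and 143.2 TPM with DTPA.

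Genes that feed, use or regulate the pathway were described from 6 lists with 39 genes, of which 21 were tested in each comparison. In the control comparison 2 (9.52%) were higher and 9 (42.9%) lower than at 0 h, beside 15.1% and 24.3% of all genes. With DTPA against control 6 (28.6%) were higher and 11 (52.4%) lower, beside 21.7% and 36.4% of all genes, and the median log2 change was -0.23.

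Of the regulators of ornithine decarboxylase, 3 of 4 were tested, and with DTPA 1 was higher and 2 were lower. Myc, which encodes a transcription factor known to activate Odc1, was at 473.63 TPM at 0 h, 15.02, 14.70 and 14.92 TPM in the controls and 28.94, 31.24 and 31.56 TPM with DTPA. Its log2 fold change was -4.90 ± 0.0616 for control against 0 h (adjusted p = 1.98e-07) and 0.99 ± 0.0547 for DTPA against control (adjusted p = 4.60e-06). In sign and order of groups Myc ran with Srm, while with DTPA Odc1 was lower and Myc higher. Max, the partner of MYC, rose by 1.14 in the controls and was lower with DTPA (-0.48, adjusted p = 1.74e-05). Nqo1, a quinone reductase known to bind and stabilise ornithine decarboxylase protein, was at 32.69 TPM at 0 h, 36.97, 32.68 and 37.56 TPM in the controls and 10.35, 9.08 and 7.26 TPM with DTPA. At -1.90 ± 0.119 (adjusted p = 8.86e-06) it had the largest DTPA difference of the 21 tested genes.

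Eif5a encodes the translation factor whose hypusine residue is built from spermidine. It was at 2712.84 TPM at 0 h, 355.68, 361.15 and 359.97 TPM in the controls and 203.70, 217.57 and 227.03 TPM with DTPA. It fell by 2.91 on the log2 scale in the controls (adjusted p = 6.89e-07) and by 0.73 with DTPA against control (adjusted p = 9.07e-06). Its paralog Eif5a2 went the other way with DTPA, from 22.1 ± 2.05 to 28.9 ± 1.85 TPM (SD, n = 3 each; 0.38, adjusted p = 0.00474). Dhps, which starts hypusine formation, was lower with DTPA (-0.23, adjusted p = 0.0195), a call lost with median-of-ratios factors (-0.12, adjusted p = 0.143), after quantile normalization (-0.09, adjusted p = 0.24), without control 1 (-0.19, adjusted p = 0.0702) and without DTPA library 2 (-0.20, adjusted p = 0.0657). Dohh, which completes it, was not called at 0.30 (adjusted p = 0.0734), and was called without control 1 (0.45, adjusted p = 0.00305), with median-of-ratios factors (0.42, adjusted p = 0.026) and after quantile normalization (0.44, adjusted p = 0.0204).

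Transporters were tested for 4 of 11 genes, and with DTPA 2 were lower. Slc7a1, the cationic amino acid transporter that carries arginine, was at 73.57 TPM at 0 h, 17.48, 15.99 and 18.66 TPM in the controls and 6.96, 7.81 and 7.82 TPM with DTPA (-1.11 ± 0.081, adjusted p = 1.93e-05). Slc3a2, the heavy chain shared by several amino acid transporters, was at 281.2 ± 4.91 TPM in the controls and 179.8 ± 6.44 TPM with DTPA (SD, n = 3 each; -0.64, adjusted p = 8.30e-06). Atp13a3, a polyamine transporter of the endosomal membrane system, was at 105.14 TPM at 0 h and 43.3 ± 2.65 TPM in the controls, a log2 change of -1.26 (adjusted p = 2.14e-05). Its DTPA difference of -0.13 (adjusted p = 0.0892) was not called, nor was the 0.13 (adjusted p = 0.304) of the lysosomal polyamine exporter Atp13a2.

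Of the genes that supply precursors, 4 of 9 were tested, and 1 was higher and 2 were lower with DTPA. Mat2a, the methionine adenosyltransferase that makes S-adenosylmethionine, was at 256.08 TPM at 0 h and 67.2 ± 7.09 TPM in the controls (-1.92, adjusted p = 1.98e-05). With DTPA it was at 71.9 ± 2.04 TPM and not called (0.10, adjusted p = 0.285), but was called without control 3 (0.18, adjusted p = 0.0223), with median-of-ratios factors (0.22, adjusted p = 0.0255) and after quantile normalization (0.24, adjusted p = 0.0171). Oat, ornithine aminotransferase, was lower with DTPA (-0.36, adjusted p = 8.79e-04), as was Mat2b, a regulatory subunit (-0.37, adjusted p = 1.88e-04). Aldh18a1, which makes a precursor of ornithine and proline, was higher (0.21, adjusted p = 0.00269). The arginase genes Arg1 and Arg2, which can provide ornithine, were listed at 0 in all 7 libraries, and Agmat, agmatinase, reached 0.82 TPM at most.

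Methionine salvage recycles the by-product of spermidine and spermine synthesis. Of its 5 genes 4 were tested, and with DTPA 2 were higher and 2 lower. Mri1, an isomerase of that route, was at 14.48, 15.19 and 12.13 TPM in the controls and 26.87, 27.28 and 29.09 TPM with DTPA (0.95 ± 0.0864, adjusted p = 5.93e-05). Adi1 was higher by 0.33 (adjusted p = 2.29e-04), Enoph1 was lower (-0.68, adjusted p = 0.00166), and so was Apip (-0.31, adjusted p = 4.95e-04). Among other family members, Sat2, named as a relative of Sat1, was at 0.36 TPM at 0 h, 13.40, 19.02 and 16.70 TPM in the controls and 27.10, 25.68 and 23.46 TPM with DTPA. It was called in the same direction as Sat1 in both comparisons, at 3.66 ± 0.188 (adjusted p = 1.31e-05) and 0.62 ± 0.12 (adjusted p = 0.00323). The Sat2 value at 0 h rests on an estimated 3 reads in the single library. Its change against 0 h in the controls ran from 1.99 to 5.15 over the alternatives. Amd2 was lower with DTPA (-0.66, adjusted p = 0.0298), a call on 17 to 56 estimated reads a library at 24 h. It was lost without control 1 (-0.65, adjusted p = 0.0711) or control 2 (-0.49, adjusted p = 0.1) and without each DTPA library in turn (-0.57 to -0.71, adjusted p = 0.0524 to 0.0895), with no filter (adjusted p = 0.0578) and with median-of-ratios factors (adjusted p = 0.0512).

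**Figure D4:**
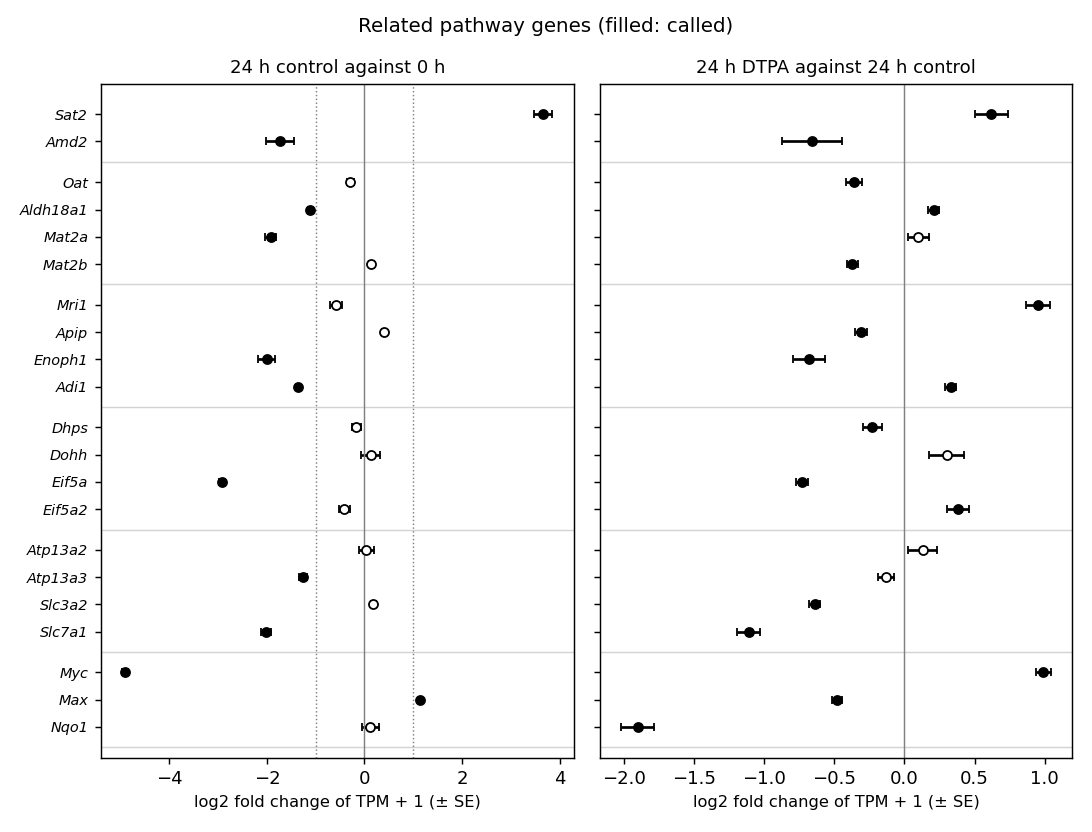
Log2 fold change of TPM + 1 (horizontal axis, with its SE) of the 21 tested related genes, 24 h control against 0 h on the left and 24 h DTPA against control on the right; grey lines part the 6 lists, filled points were called and dotted lines mark the minimum fold of 1. Myc is at -4.90 on the left and 0.99 on the right, and Nqo1, at 0.12 on the left, is at -1.90 on the right.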

How the data were processed

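Messenger RNA of 7 libraries was sequenced after TruSeq stranded mRNA preparation, per the labels' protocols. The authors deposited 1 TPM value per gene row and library. The submitters' processing notes name Trimmomatic 0.33, FastQC, HISAT2 2.1.0, featureCounts, edgeR and the build mm10; the annotation release, gene lengths, strand setting and handling of multiply matching reads are not given in the sources used here. TPM is relative, so abundant genes that rise lower all others. Values of 114 symbols on several of 55487 rows were summed.

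Tests were made with limma 3.58.1 (R 4.3.3; eBayes with trend) on log2(TPM + 1), two-sided, with Benjamini-Hochberg adjustment over all tested genes at 0.05; fold changes are given on this scale and are too small for genes of low level. DTPA against control used the 6 libraries of 24 h and only genes at 1 TPM or more in 3 or more of them. Comparisons with 0 h used all 7 libraries in 3 groups, only genes whose mean reached 1 TPM in either group, and a log2 fold change of at least 1 in size; the lone 0 h library was assumed to vary like the others. Exact permutation tests were made for Odc1 and Sat1.

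Depth was estimated from the steps of low TPM values with GENCODE M21 exon lengths; 99.1% to 99.3% of low values lay within 0.1 of a whole read. Copies are transcripts sharing at least 10% of a gene's 50-base stretches. Promoters are RefSeq GRCm38.p6, coordinates GENCODE M21 (GRCm38).

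Named genes are the 10 members, the tested genes of the related lists, the 4 genes closest to Odc1 and to Sat1, and Mt1 and Mt2; Gm7993 and the other copies, the untested list genes and the genes around Mtap were named after their values were seen. The members and lists were chosen with earlier results of these data known. Alternatives were pseudocounts of 0.1 and 5, no filter and a filter of 5 TPM, 3 other scalings, no trend, each 24 h replicate left out, a replicate block, all 7 libraries, no minimum fold, and copies added. A planned comparison of protein sequences was not made.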

Additional observations from a re-analysis of the deposited data

How the results depend on the processing

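Every tested member kept its direction in DTPA against control under all alternatives run, and the member counts were 3 higher and 4 lower under each that left out a replicate. Against 0 h the exception among members was Azin1, uncalled at -0.18 with DTPA, which was 0.09 with median-of-ratios factors and 0.07 after quantile normalization. The number of members higher in the controls than at 0 h was 3 with median-of-ratios factors, 2 after quantile normalization and 4 with no minimum fold. With no minimum fold the controls had 3675 genes higher and 5188 lower than at 0 h, and DTPA cells 3598 and 5594; among related genes 5 were then higher in the controls, and 3 higher and 14 lower with DTPA. Related genes with small changes turned direction: Atp13a3 in DTPA against control was 0.02 after quantile normalization; Dohh and Atp13a2 in control against 0 h were -0.01 and -0.02 without control replicate 1, in ranges of -0.01 to 0.22 and -0.02 to 0.10 over the replicates left out. In DTPA against 0 h, Mat2b was 0.04 with median-of-ratios factors, and Eif5a2 was 0.23 with those factors, 0.30 after quantile normalization, 0.06 without globin genes and 0.01 without DTPA replicate 2, in a range of -0.08 to 0.01 over the replicates left out. The cause was not tested. Over all genes, scaling moved the median log2 change from -0.22 to -0.07 (median-of-ratios) and -0.03 (quantile) for control against 0 h, and from -0.30 to -0.04 and -0.03 for DTPA against 0 h. Of the calls, 38.3% were higher in control against 0 h and 48.5% after quantile normalization; for DTPA against 0 h the share was 36.3% and went to 47.6% and 48.9%. Same-numbered replicates did not deviate together (r = -0.01, 0.02 and -0.01 across 11147 genes, which are not independent). With 3 replicates this check cannot tell whether same-numbered samples shared a culture, and the main fits used no pairing. With the replicate block, DTPA against control gave 2274 genes higher and 3888 lower against 2415 and 4059 without it, and 3 and 4 members. Depth limits Smox, at 0 to 4 estimated reads, and Paox, at 80 to 113 reads at 24 h; a single 0 h library limits every comparison with 0 h.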

Other observations

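Mtap, the phosphorylase that opens methionine salvage by splitting the by-product of spermidine and spermine synthesis (chr4:89137122-89181081, GRCm38), was listed at 0 in all 7 libraries, although the 4 genes that follow it in the route were at 8.60 TPM or more in every library. The next genes on the chromosome, the cell cycle inhibitors Cdkn2a (chr4:89274471-89294653) and Cdkn2b (chr4:89306299-89311039), were also listed at 0 in all 7. Dmrta1, Zfp352, Elavl2 and Izumo3, which follow, were listed at 0 too, as were the genes examined before Mtap, from Gm13275 to Ifne. Among genes further along the chromosome, Gm12666 was at 5.96 to 47.84 TPM and Tusc1 at 3.83 to 6.77 TPM. Caap1 was at 9.31 to 16.85 TPM and Plaa at 49.30 to 72.45 TPM. Whether these zeros come from the cells or from the processing was not tested. These neighbours were chosen after the Mtap value was seen.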
